A study of Mus musculus with 2 samples.

Results

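Conventional CD4 T cells of mouse adipose tissue were defined here as the cells of cluster 2 in the authors' deposited clustering that carried at least 1 unique molecular identifier (UMI, 1 captured transcript molecule) of Cd4 and none of Cd8a or Cd8b1. The rule gave 268 of 10159 cells, 56 of them from the chow library and 212 from the ketogenic library. The deposited table gave a cluster to 10017 cells, of which cluster 2 held 1057, 236 from chow and 821 from the ketogenic diet. Of the other cells of cluster 2, 252 had UMIs of Cd8a or Cd8b1 but not Cd4 (called CD8 T cells here), 16 had both and 521 had neither. Cluster, Cd4, Cd8a and Cd8b1 were the measured values the members were chosen by, so values of these are a description, with no test.

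The cells came from adult wild-type (wt) C57BL/6 mice fed either chow (the control) or a ketogenic diet for 1 week. CD45+ leukocytes of adipose tissue were taken, and labelling through the bloodstream had been used to set aside cells still inside vessels, so both groups hold tissue-resident cells. Each diet was represented by 1 library made with a 10x Genomics protocol. How many mice went into a library is not given in the sources used here. With 1 library per diet there is no replicate check and no test between diets. Square brackets give exact 95% intervals for counting error only.

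CD4 T cells recognise peptides on MHC class II through their T cell receptor and help other immune cells with cytokines and with the surface ligand CD40L. Naive cells circulate through lymphoid organs with the help of Ccr7 and S1pr1. Memory cells carry more Cd44, S100 proteins and integrins and can stay in tissues, where T helper 1 (Th1), Th2 and Th17 cells differ in their master regulators and cytokines. Adipose tissue is known for its Foxp3+ regulatory T cells, which carry the IL-33 receptor (Il1rl1), Klrg1 and amphiregulin (Areg), and its conventional CD4 T cells have been studied for Th1 cytokines in obesity.

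The members' summed UMIs came to 136586 in the chow library and 757303 in the ketogenic library. Their depth differed, with a median of 2262.5 UMIs per chow cell (range 1702 to 4643) and 3131 per ketogenic cell (range 2058 to 12527). The shallowest ketogenic member had 2058 UMIs, and 18 of the 56 chow members lay below every clustered ketogenic cell. The median number of genes detected per member was 977 and 1239. The median mitochondrial share of UMIs was 2.55% and 2.06%. The libraries shared 41 cell barcodes, and 3 members had a barcode that also occurred in the other library, but no barcode occurred among the members of both.

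Most members met the rule by 1 molecule. Exactly 1 Cd4 UMI was found in 44 of 56 chow and 143 of 212 ketogenic members, 9 and 52 had 2, and no member had more than 4. Among the cells of cluster 2 without Cd8 UMIs, 34.0% had a Cd4 UMI (14.1% after every cell was thinned to 1000 UMIs). In cell types that should lack Cd4 transcripts the share was 0.560% for NK-like cluster 1, at a median of 2761 UMIs, and 3.67% for B and plasma-like cluster 9, at a median of 4464. It was 5.97% in cells of cluster 2 with Cd8 UMIs, at a median of 3035.5, against a median of 2814 in those without. The 521 cells just outside the rule, with no UMI of Cd4, Cd8a or Cd8b1, can hold CD4 T cells whose Cd4 transcript was not captured.

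The label was checked on Izumo1r, Cd40lg, Cd28 and Trac, comparing members with all other clustered cells. Cd4 was required by the rule and checks nothing. All 4 were at least 2-fold higher in members in both libraries, on CPM (UMIs normalized to the total of the same cells) with 20 added. Cd40lg, the ligand by which helper T cells license B cells and dendritic cells, stood at 183 and 173 CPM in chow and ketogenic members. It does not set them apart from the other CD4 T cells, since cluster 7 cells with Cd4 and without Foxp3 had more in both libraries. Cd28, the receptor for co-stimulation, stood at 534 and 486 CPM, and Trac, the constant segment of the receptor's alpha chain, at 696 and 986 CPM. CD8 T cells of cluster 2 passed the same check for Cd28 (5.64-fold and 2.47-fold) and Trac (5.79-fold and 3.41-fold). These 2 genes therefore do not set members apart from CD8 T cells. Izumo1r (folate receptor 4) stood at 65.9 and 203 CPM, against 79.8 and 106 CPM in cluster 7 cells with Foxp3, so in chow it was not higher in members than there. Foxp3, which defines regulatory T cells, was seen in 2 chow and 13 ketogenic members. Members without Foxp3 gave a share ratio of 2.96 in place of the 3.04 given below.

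Conventional CD4 T cells made up a larger share of the leukocytes in the ketogenic library. They were 1.26% [0.9503–1.63] of the 4458 clustered chow cells and 3.81% [3.33–4.35] of the 5559 clustered ketogenic cells, a ratio of 3.04 [2.25–4.15]. CD8 T cells of the same cluster stood at 1.03% and 3.71%, a ratio of 3.59 [2.60–5.06]. Within cluster 2 the share of conventional CD4 T cells was 23.7% [18.5–29.7] and 25.8% [22.9–29.0], a ratio of 1.09 [0.807–1.49], so the difference lay in the size of the cluster and none was detectable inside it at this depth. Within the T cell clusters 2, 7 and 11 together the shares were 12.3% and 16.1%, a ratio of 1.31 [0.969–1.79]. Among members and CD8 T cells alone, the members were 54.9% in chow and 50.7% in the ketogenic library.

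The ratio was also taken with depth and membership treated in other ways. After every cell was thinned to 1000 UMIs, 29 chow and 86 ketogenic cells met the rule, a ratio of 2.38 [1.55–3.76]. With chow cells shallower than every clustered ketogenic cell left out (38 chow members remaining) it was 3.90 [2.75–5.67], and with at least 2 Cd4 UMIs it was 4.61 [2.48–9.35], from 12 and 69 cells. All cells of cluster 2 without a Cd8 UMI, counted with no need of a Cd4 UMI, gave 2.62 [2.22–3.10]. A share of cells cannot tell more T cells from fewer other leukocytes in the tissue.

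**Figure D1:**
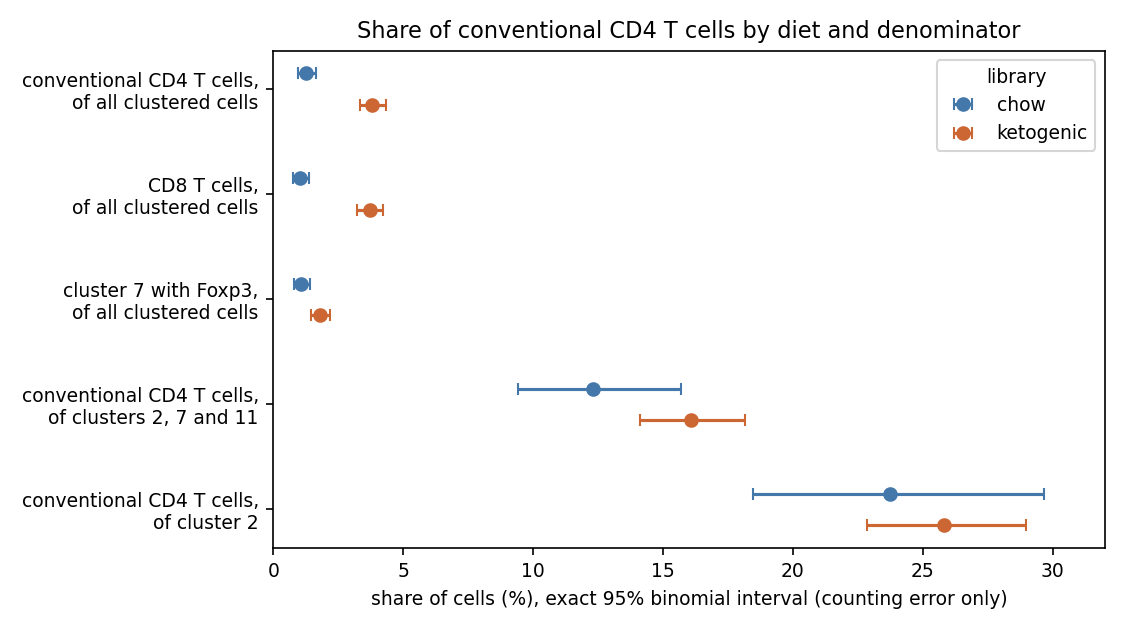
Share of cells (%) in the chow (blue) and ketogenic (orange) library with exact 95% binomial intervals, for conventional CD4 T cells over 3 denominators and for 2 other T cell groups over all clustered cells. The conventional CD4 T cell points are 1.26% and 3.81% of all clustered cells and 23.7% and 25.8% of cluster 2.

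The question of the diet comparison within these cells was which transcripts differed. UMIs were summed over the members of each library and divided by their total, and each gene is given as a log2 ratio of the ketogenic to the chow level after 0.5 was added to each count. Of 4595 genes that reached 20 UMIs in the 2 sums (measured genes), 972 (21.2%) were over 1.5-fold higher and 665 (14.5%) over 1.5-fold lower in the ketogenic library. Where a log2 ratio below is followed by square brackets, these hold the interval of the ratio itself, not of its log2. The median of the measured genes was 0.05, and 90% of them lay between −0.98 and 1.37. The wide range goes with low counts in the 56 chow cells. At 100 UMIs or more the shares were 11.3% higher and 6.04% lower of 1126 genes, and 90% lay between −0.65 and 0.80. The median depth per member, 2262.5 against 3131 UMIs, differed with the diet, and with the 18 shallowest chow members left out the counts were 1023 higher and 704 lower of 4485 genes.

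Among genes of at least 100 UMIs, the 10 highest ratios belonged to Ccl1, Gcg, Xcl1, Ddx39b, Rhoh, Rpn2, Ptpn1, Izumo1r, Vgll4 and Ap2m1. Ccl1, a chemokine of activated T cells (chr11:82176657-82305690 on the mm10 build), had 1 chow and 139 ketogenic UMIs, or 7.32 and 184 CPM. Its log2 ratio was 4.07 (ratio 25.1 [4.43–997]). Those UMIs lay in 1 chow and 11 ketogenic members, and 1 ketogenic cell held 77 of them, the next 27 and 14. Leaving out that cell gave 2.91, so the direction did not rest on it, but a few cells carried the signal. Among members with at least 2 Cd4 UMIs (12 chow and 69 ketogenic cells) the sign turned, to −1.58.

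Xcl1, the ligand of the receptor on cross-presenting dendritic cells (chr1:164931644-164935527), had 5 chow and 134 ketogenic UMIs, 36.6 and 177 CPM, a log2 ratio of 2.14 (ratio 4.83 [2.02–15.1]). It was found in 3 chow and 32 ketogenic members, with at most 2 UMIs in a chow cell and up to 25 in a ketogenic cell. The top 3 ketogenic cells, with 25, 24 and 21 UMIs, held 52.2% of the ketogenic UMIs. Leaving out the first of them gave a log2 ratio of 1.84. Izumo1r (chr9:14885814-14903949) had 9 chow and 154 ketogenic UMIs and a log2 ratio of 1.55 (ratio 3.09 [1.58–6.88]). Its UMIs were spread over 7 chow and 74 ketogenic members, with at most 7 in a cell. Ddx39b, an RNA helicase of mRNA export, had 5 chow and 122 ketogenic UMIs and a log2 ratio of 2.01 [1.84–13.8], from 5 chow and 92 ketogenic members with at most 4 UMIs each. Rhoh, a GTPase of T cell receptor signalling (7 chow and 143 ketogenic UMIs), stood at 1.79, and Ptpn1, a tyrosine phosphatase (5 chow and 95 ketogenic UMIs), at 1.65. Rpn2, Vgll4 and Ap2m1 stood between 1.48 and 1.78, each with 5 to 7 chow UMIs. In CD8 T cells of the same cluster the log2 ratio was 1.51 for Xcl1, 1.04 for Izumo1r, 0.12 for Ddx39b, −0.09 for Rhoh and −0.49 for Ccl1. Whether these differ from the values in members was not tested.

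Gcg, which encodes glucagon, is listed for its log2 ratio of 3.83 only because of a single cell. That ketogenic cell held 195 of the 196 ketogenic UMIs, and without it the log2 ratio was −3.21. The cell had 7063 UMIs in all, with 2 of Cd4, 19 of Trac and 12 of Trdc, and none of the other islet genes looked up (Ins2, Ppy, Chga, Pcsk2 and Ttr). Outside the members Gcg was seen as 1 chow and 15 ketogenic UMIs, at most 1 per cell.

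The 10 lowest ratios belonged to Retnla, Lyz2, Itgal, BC005537, Rpl13a-ps1, Fosb, Emb, Gm42418, Gm26532 and Hnrnph1. Itgal, the alpha chain of the integrin LFA-1 (chr7:127296260-127335138), had 58 chow and 101 ketogenic UMIs, 425 and 133 CPM, a log2 ratio of −1.68 (ratio 0.314 [0.225–0.442]). It was found in 34 of 56 chow and 77 of 212 ketogenic members, so the chow level was carried by more than a few cells. Emb, a membrane protein of the immunoglobulin superfamily that accompanies monocarboxylate transporters (chr13:117208536-117274415), had 73 chow and 177 ketogenic UMIs, 534 and 234 CPM, a log2 ratio of −1.20 (ratio 0.437 [0.331–0.583]). Fosb, an immediate early gene, stood at 366 and 159.8 CPM (−1.20 [0.311–0.620]), and Hnrnph1, a splicing factor, at 205 and 95.1 CPM (−1.12 [0.296–0.746]). In CD8 T cells Itgal stood at −0.43, Emb at −0.25 and Fosb at −1.07. Rpl13a-ps1 (−1.31) is a pseudogene that can share reads with its parent, so its value is uncertain, and Gm42418 (−1.17) and Gm26532 (−1.12) are annotated as long non-coding RNAs.

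Retnla and Lyz2, which macrophages express, had the lowest log2 ratios among genes of at least 100 UMIs, −3.29 and −2.58. Retnla stood at 519.8 and 52.8 CPM (71 chow and 40 ketogenic UMIs) and Lyz2 at 512 and 85.8 CPM (70 chow and 65 ketogenic UMIs). No member had more than 5 Retnla or 6 Lyz2 UMIs, and 38 of 56 chow members had at least 1 Retnla UMI. The whole macrophage and monocyte list of 10 genes summed to 1193 CPM in chow and 182 CPM in ketogenic members, and to 12700.1 and 2199 CPM in all other clustered cells. C1qa had 3 and 1 UMIs, Csf1r 1 and 3, Adgre1 1 and 0, and C1qc 0 and 1. In CD8 T cells Retnla and Lyz2 stood at −2.72 and −2.20. In cluster 7 cells with Foxp3 Retnla stood at 682 and 654 CPM (−0.07) and Lyz2 at 594 and 449 CPM (−0.41), but 1 ketogenic cell held 247 of the 265 Retnla UMIs and 134 of the 182 Lyz2 UMIs were in 1 cell. In cDC1-like cluster 6 Retnla was lower in the ketogenic library, at 417 and 43.6 CPM, while Lyz2 was not, at 1605 and 1680.1 CPM. The part of free RNA in the members' values was not tested.

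**Figure D2:**
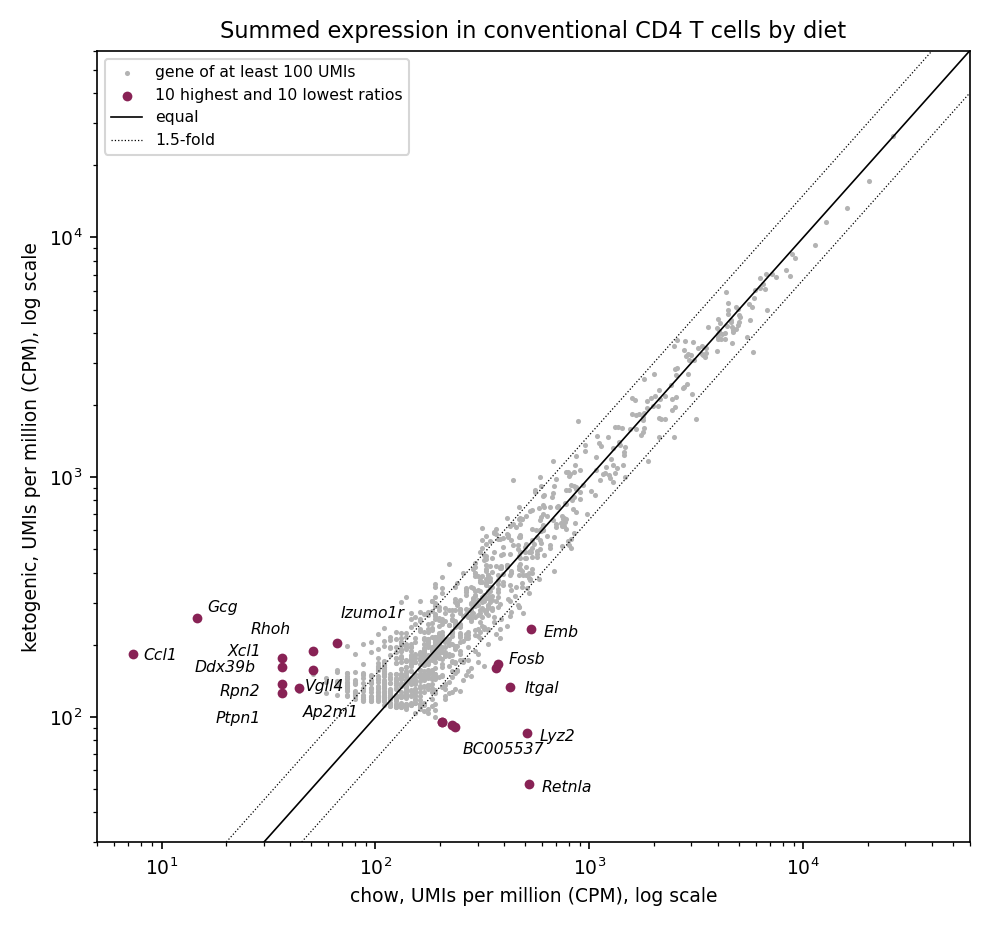
Summed expression of each gene of at least 100 UMIs in conventional CD4 T cells, in CPM on log scales, chow on the x axis and ketogenic on the y axis, with the 20 genes of highest and lowest ratio in purple, 16 of them labelled. The dotted lines mark 1.5-fold, and Ccl1 and Gcg lie farthest above and Retnla and Lyz2 farthest below the line of equal levels.

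Genes were then read by function, in lists that are described by their counts past 1.5-fold and their medians beside 21.2% higher, 14.5% lower and a median of 0.05 over all measured genes. These counts are small and depend on the settings. Over 12 other choices of members, scaling and added count, the number of higher genes moved by over 1.5 times in 21 of 26 lists, and that of lower genes in 22. Over all 17 settings, which also vary the fold and the minimum of UMIs, the median took both signs in 15 of the 26 lists, and each median is given with its range. For the T cell receptor complex and its proximal signalling, 4 of 15 measured genes were higher and 1 lower, with a median log2 ratio of 0.49 (0.28 to 0.49 over the settings). Trbc1, a constant segment of the beta chain, stood at 674 and 1169.9 CPM (0.79 [1.40–2.18]) and the other, Trbc2, at 1581 and 1841 CPM (0.22). Cd3e, a signalling chain of the complex, stood at 373 and 555 CPM (0.56), just under the 1.5-fold line. Lck, the kinase that starts the signal, stood at 315 and 506 CPM (0.67 [1.17–2.26]), and Cd6, a co-receptor, at 80.5 and 184 CPM (1.13 [1.24–4.67]). The count of 4 higher genes was 1 without possible doublets, where 19.5% of all genes were higher.

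In the co-stimulation and checkpoint list 7 of 12 measured genes were higher and 0 lower, with a median log2 ratio of 0.64 (−0.20 to 0.70 over the settings). Cd27, a receptor of the tumour necrosis factor (TNF) family that sustains T cells, stood at 190.4 and 358 CPM (26 chow and 271 ketogenic UMIs), a log2 ratio of 0.89 [1.26–2.93]. Tnfrsf4 (OX40) stood at 139 and 316 CPM (19 chow and 239 ketogenic UMIs; 1.15 [1.42–3.83]) and Tnfsf11 (RANKL) at 21.96 and 75.3 CPM (3 chow and 57 ketogenic UMIs; 1.57 [1.11–17.1]). Lag3, an inhibitory receptor, had no UMI in the 136586 chow UMIs and 37 in 15 ketogenic members, at least 2.22-fold higher against a limit of 3 counts per library. Cd28, the most abundant of the list, Icos and Cd40lg stood at −0.15, −0.37 and −0.10. The median was 0.06 over the 8 genes of at least 50 UMIs, and it was −0.20 among members with at least 2 Cd4 UMIs, which were 12 chow and 69 ketogenic cells.

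Of 18 cytokine genes, 6 reached 20 UMIs, of which 3 were higher, with a median of 0.57 (0.24 to 0.70 over the settings). Il2, the T cell growth factor, had 7 chow and 70 ketogenic UMIs (51.2 and 92.4 CPM; 0.76 [0.831–4.65]), and 1 ketogenic cell held 15 of them. Ifng, the Th1 cytokine, had 11 chow and 105 ketogenic UMIs (80.5 and 139 CPM; 0.73 [0.924–3.55]), found in 10 chow and 44 ketogenic members, of which 1 held 18 UMIs. Both intervals include equal levels. Neither stayed past 1.5-fold without its top cell (0.42 for Il2 and 0.46 for Ifng) or with 2 added to each count (0.53 and 0.57), which left 1 of the 6 genes higher, and Ifng was at −0.06 among members with at least 2 Cd4 UMIs. Areg, a growth factor of tissue repair, had 8 chow and 110 ketogenic UMIs (58.6 and 145 CPM; 1.23 [1.22–5.89]), 25 of them in 1 ketogenic cell. Its direction turned under another choice of members, to −0.36 with at least 2 Cd4 UMIs and −0.35 over all cells of cluster 2 without Cd8 UMIs. Ltb, a lymphotoxin subunit, stood at 476 and 635 CPM (0.41). Il4 had 2 and 4 UMIs, Il5 1 and 4, Il13 0 and 2, and Il21, Tnf and Csf2 0 in chow and 4 or 5 in the ketogenic library. Il17a, Il22, Il3 and Il6 had none in either library.

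By helper program, 12 of 13 Th1 genes, 3 of 11 Th2 genes and 4 of 12 Th17 genes reached 20 UMIs. In the Th1 list 3 of 12 measured genes were higher and 2 lower, with a median log2 ratio of 0.15 (−0.27 to 0.28 over the settings). Tbx21, the Th1 master regulator T-bet, had 4 chow and 54 ketogenic UMIs (1.13 [0.898–9.26]) in 3 chow and 39 ketogenic members, and Cxcr3, a chemokine receptor of Th1 cells, stood at 190.4 and 289 CPM (0.58 [1.01–2.38]). Ccl5 and Nkg7, the most abundant of the list, stood at 1947 and 2134 CPM (0.13 [0.962–1.25]) and 776 and 887 CPM (0.19). Ccl5 was uneven among members, with a median of 1 UMI and a highest value of 76 in chow cells, and a median of 2 and a highest of 105 in ketogenic cells. In the Th2 list Gata3, the master regulator, stood at 161 and 141 CPM (−0.21) and Il1rl1 at 14.6 and 26.4 CPM (2 chow and 20 ketogenic UMIs), so of these only Areg was past 1.5-fold, with the limits just given. In the Th17 list none was past 1.5-fold, with a median of −0.41 (−0.68 to −0.34 over the settings). Il17a, Il17f, Il22, Il23r and Il1r1 had no UMI in any member, which allows a share of up to 5.36% of chow and 1.42% of ketogenic members with a UMI.

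In the follicular helper list 2 of 6 measured genes were higher and 0 lower, with a median log2 ratio of 0.31 (−0.36 to 0.47 over the settings). With at least 2 Cd4 UMIs none was higher and 1 lower, with a median of −0.36. The 2 were Btla (1 chow and 25 ketogenic UMIs) and Pdcd1 (4 chow and 40 ketogenic UMIs), with intervals that include equal levels (Pdcd1 at −0.20 with at least 2 Cd4 UMIs), and Cxcr5 and Bcl6 had 0 chow and 8 and 4 ketogenic UMIs. In the regulatory T cell list 3 of 8 measured genes were higher and 0 lower, with a median log2 ratio of 0.35 (0.18 to 0.84 over the settings). The 3 higher genes were Tnfrsf4, Tnfrsf9 (4-1BB, 1 chow and 58 ketogenic UMIs; 2.81 [1.80–420.2]) and Klrg1 (2 chow and 41 ketogenic UMIs; 1.58 [0.960–31.6]), of which activated conventional T cells can also carry the first 2. Foxp3 had 2 chow and 18 ketogenic UMIs and Il2ra, the high-affinity IL-2 receptor chain, 1 chow and 18 ketogenic UMIs. Left without the 2 chow and 13 ketogenic members that had a Foxp3 UMI, the list still had 3 higher genes and a median of 0.43.

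Among naive and memory genes, some were higher and some lower in the ketogenic library. In the naive and central memory list 1 of 13 measured genes was higher and 3 lower, with a median log2 ratio of −0.18 (−0.26 to 0.07 over the settings). Ccr7, the receptor for lymph node homing, was higher at 51.2 and 152 CPM (7 chow and 115 ketogenic UMIs; 1.47 [1.39–7.53]), in 6 chow and 44 ketogenic members. Il7r, the IL-7 receptor of naive and memory cells, was lower at 264 and 149 CPM (−0.83 [0.386–0.848]), and so was S1pr1, which guides exit from tissue, at 278 and 159.8 CPM (−0.81 [0.396–0.850]). Klf2, a transcription factor that drives S1pr1, stood at 864 and 889 CPM (0.04). In the effector memory list 1 of 14 measured genes was higher and 3 lower, with a median log2 ratio of −0.15 (−0.52 to −0.10 over the settings). With at least 2 Cd4 UMIs 1 was higher and 6 lower, where 22.4% of all genes were higher and 23.8% lower. Crip1, a LIM-domain protein abundant in memory cells, stood at 5813 and 3334 CPM (−0.80 [0.529–0.622]), Cd44, the hyaluronan receptor, at 278 and 148 CPM (−0.92 [0.365–0.790]), and Ahnak at 388 and 256 CPM (−0.61 [0.485–0.912]). S100a4 stood at 1062 and 841 CPM (−0.34). Il2rb, the shared IL-2 and IL-15 receptor chain, was the 1 higher gene at 139 and 224 CPM (0.66 [1.002–2.75]). Crip1 and Cd44 stood at −0.79 and −0.52 in CD8 T cells.

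Of the tissue retention list, 1 of 8 measured genes was higher and 1 lower, with a median log2 ratio of 0.11 (−0.91 to 0.26 over the settings). With at least 2 Cd4 UMIs 1 was higher and 5 lower, with a median of −0.91. Cd69, which holds T cells in tissue by opposing S1pr1, had 8 chow and 83 ketogenic UMIs (58.6 and 109.6 CPM; 0.83 [0.907–4.48]), and was at −0.02 over all cells of cluster 2 without Cd8 UMIs. Cxcr6, a chemokine receptor of resident T cells, stood at 139 and 161 CPM (0.18) and Rgs1 at 183 and 215 CPM (0.21). Cxcr4, the receptor for Cxcl12, was lower at 300.2 and 169 CPM (−0.84 [0.393–0.821]). Itgae (CD103) had 0 and 6 UMIs and Itga1 (CD49a) 0 and 2. Among cytokine receptors and their signalling, 4 of 18 measured genes were higher and 3 lower, with a median log2 ratio of 0.03 (−0.40 to 0.27 over the settings). Il21r stood at 117 and 210.0 CPM (0.80 [1.07–3.21]), Il6ra at 73.2 and 22.4 CPM from 10 chow and 17 ketogenic UMIs (−1.73 [0.133–0.749]), and Ifngr1, the receptor for interferon-gamma, at 761 and 623 CPM (−0.29).

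Immediate early genes, which tissue dissociation can also induce, were mixed. In that list 3 of 16 measured genes were higher and 3 lower, with a median log2 ratio of 0.03 (−0.07 to 0.25 over the settings). Junb, the most abundant of its transcription factors, stood at 1808 and 2579 CPM (0.51 [1.25–1.63]), Dusp1, a phosphatase, at 329 and 528 CPM (0.67), and Btg2, an anti-proliferative gene, at 593 and 923 CPM (0.63, but −0.22 with at least 2 Cd4 UMIs). Fosb and Egr1 were lower, Egr1 at 117 and 37.0 CPM (−1.68 [0.165–0.625]), and Fos stood at 351 and 347 CPM (−0.03). Of the NF-kB targets, 2 of 12 measured genes were higher and 1 lower, with a median log2 ratio of 0.03 (−0.19 to 0.32 over the settings). Nfkbia, the inhibitor, stood at 527 and 725 CPM (0.45), and Tnfaip3 (A20), another brake, at 578 and 375 CPM (−0.63 [0.504–0.843]). For the interferon response, 6 of 16 measured genes were higher and 2 lower, with a median log2 ratio of 0.25 (0.13 to 0.45 over the settings). Isg15 stood at 65.9 and 157 CPM (9 chow and 119 ketogenic UMIs; 1.18 [1.21–5.34]), Ifi47, a GTPase induced by interferon-gamma, at 43.9 and 109.6 CPM (1.21 [1.10–6.99]), and Ifi203 at 271 and 156 CPM (−0.81 [0.395–0.856]). Ifi27l2a, the most abundant of the list, stood at 820.0 and 924 CPM (0.17).

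Metabolic genes bear on the diet, which replaces glucose by fat and ketone bodies as fuel. In the glycolysis list 4 of 13 measured genes were higher and 1 lower, with a median log2 ratio of 0.20 (0.11 to 0.57 over the settings). Aldoa stood at 219.6 and 434 CPM (0.96 [1.36–2.98]), Gapdh at 556 and 885 CPM (0.66 [1.25–2.04]) and Gpi1 at 176 and 273 CPM (0.61 [1.02–2.48]). With at least 2 Cd4 UMIs the value for Gpi1 was −0.01. Ldha, which makes lactate, stood at 593 and 683 CPM (0.20 [0.909–1.47]), and Slc2a1, a glucose transporter, had 2 chow and 22 ketogenic UMIs. In the fatty acid oxidation list 5 of 14 measured genes were higher and 1 lower, with a median log2 ratio of 0.51 (0.18 to 0.62 over the settings). Echs1, an enzyme of the oxidation spiral, had no chow UMI and 41 ketogenic UMIs, at least 2.46-fold higher against the limit of 3 counts, and no cell held more than 2 of them. Etfb, the most abundant of the list, stood at 102 and 158 CPM (0.58 [0.886–2.91]). Cpt1a, which admits fatty acids to the mitochondrion, had 6 chow and 7 ketogenic UMIs and fell under the minimum of 20, with 43.9 and 9.24 CPM (−2.26 [0.0606–0.758]). With Echs1 and Lag3 at their bounds, the medians of their lists were unchanged at 0.51 and 0.64. Adding 2 to each count in place of 0.5 gave 0.18 for fatty acid oxidation, with 2 genes higher and 1 lower, where all measured genes had a median of −0.15.

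Of 9 genes of ketone body metabolism, 2 were measured and neither was past 1.5-fold. Acat1, which acts in both the making and the use of ketone bodies, had 11 chow and 53 ketogenic UMIs (80.5 and 70.0 CPM; −0.25 [0.449–1.85]). Oxct1, the enzyme that commits ketone bodies to use as fuel, had 4 chow and 32 ketogenic UMIs (29.3 and 42.3 CPM; 0.38 [0.512–5.62]). Bdh1, which oxidises beta-hydroxybutyrate, had 4 chow and 14 ketogenic UMIs. Bdh2, the transporter Slc16a7 and the receptor Hcar2 had no UMI in any member, which again allows up to 5.36% of chow and 1.42% of ketogenic members with a UMI. A 1.5-fold difference in Oxct1 or Acat1 lay within both intervals and was not detectable at this depth. In the mTORC1 and amino acid list 2 of 7 measured genes were higher and 0 lower, with a median log2 ratio of 0.32 (−0.28 to 0.50 over the settings), with Slc3a2, a subunit of amino acid transporters, at 146 and 166 CPM (0.15). The list's median was −0.28 with at least 2 Cd4 UMIs and −0.06 at a minimum of 10 UMIs. Cell cycle genes were scarce. Mki67 had 0 and 5 UMIs and Top2a 3 and 8, and 1 of 6 measured genes of that list was higher and none lower.

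**Figure D3:**
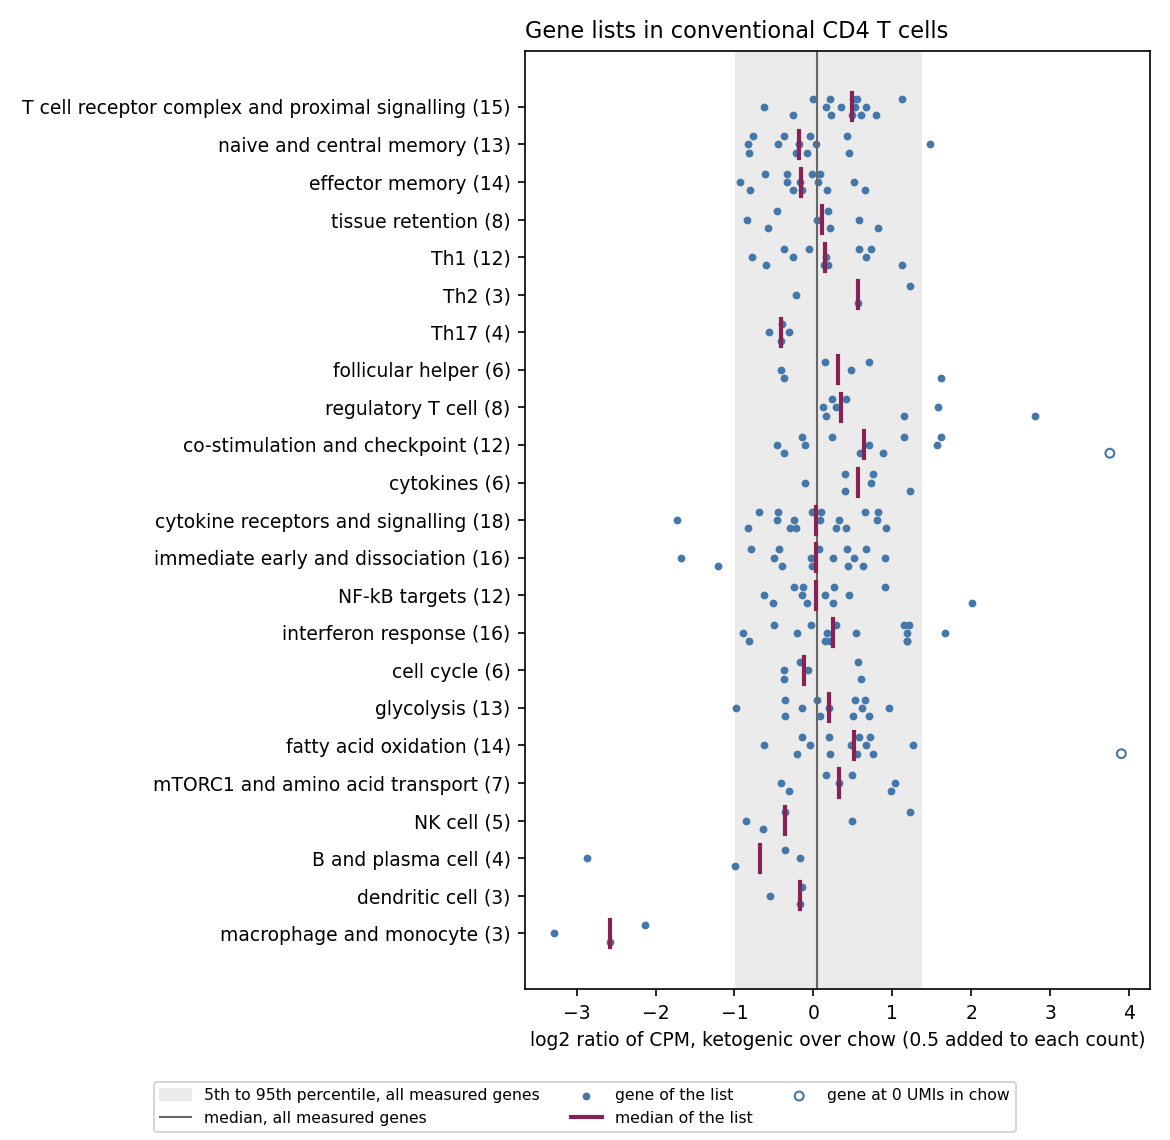
Log2 ratio of CPM, ketogenic over chow, of every measured gene (at least 20 UMIs) of 23 lists in conventional CD4 T cells, with the number of genes in brackets and each list's median in purple. Open circles are genes with 0 chow UMIs (Lag3 and Echs1), whose position depends on the 0.5 added. The list medians run from 0.64 for co-stimulation and checkpoint genes, beside an all-gene median of 0.05, to −2.58 for macrophage and monocyte genes.

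Markers of other cell types were also summed in members, and some moved with the diet. The 8 B and plasma cell genes summed to 2394 and 1781 CPM, mostly Igkc and Ighm, while the other clustered cells summed to 17286 and 20979 CPM. The 11 dendritic cell genes summed to 2467 and 2037 CPM, with Clec9a and Siglech at 0 in both, and 1 cell held 39.2% of the Cd74 UMIs. The 10 NK cell genes summed to 549 and 423 CPM. Adipoq, Plin1, Cidec, Col1a1, Col3a1, Dcn and Pdgfra, of adipocytes and stroma, had no UMI. Trdc, the constant segment of the delta chain of γδ T cells, had 5 chow and 76 ketogenic UMIs in 2 chow and 12 ketogenic members, up to 15 in a cell. Its level was not low, at 36.6 against 31.4 CPM in all other clustered chow cells and 100.4 against 94.3 CPM in the ketogenic ones. Left without them, 954 measured genes were higher and 625 lower of 4393, and the T cell receptor list had a median of 0.43. The part of these other transcripts in the members' ratios was not tested.

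Compared with the CD8 T cells of the same cluster, conventional CD4 T cells had lower levels of genes of cytotoxic cells, such as Ccl5, Klrd1 and Nkg7, and higher levels of Maf, Cd40lg and Tnfrsf4. The comparison was made within each library, over 2068 genes of at least 100 UMIs, of which 81 (3.92%) were over 1.5-fold higher and 22 (1.06%) over 1.5-fold lower in members in both libraries, the genes the rule used included. Ccl5, a chemokine of memory and cytotoxic T cells, stood at 1947 against 9782 CPM in the chow library and 2134 against 11771 CPM in the ketogenic library, log2 ratios of −2.33 and −2.46. The next lowest were Klrd1 and Klrk1, both NK receptors, at −2.56 and −1.81 and at −1.27 and −1.55, Ly6c2 at −1.80 and −1.87, the protease Ctsw at −1.58 and −1.64 and the cathepsin inhibitor Cst7 at −1.67 and −1.17. In chow, Cst7 rested on 3 against 11 UMIs, and its ratio interval [0.0504–1.07] includes equal levels. Nkg7, of cytotoxic granules, stood at −1.38 and −1.14. Leaving Cd8a and Cd8b1 aside, which the rule used, 6 other genes of the CD8 list were lower in both libraries.

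Higher in members were Maf, a transcription factor of helper cells, at 219.6 against 35.5 CPM in the chow library and 179.6 against 47.8 CPM in the ketogenic library (2.52 and 1.89), Tnfrsf4 at 1.87 and 3.01, Cd40lg at 1.81 and 2.01, Izumo1r at 65.9 against 21.3 CPM in the chow library and 203 against 50.5 CPM in the ketogenic library, and Ikzf2 (Helios) at 4.08 and 1.58. In chow, Izumo1r rested on 9 against 3 UMIs, and its ratio interval [0.773–17.8] includes equal levels. The chow value of Ikzf2 rested on 24 against 1 UMIs. Ass1, an enzyme of arginine synthesis, stood at 2.30 and 1.54 and Smco4 at 1.80 and 1.42. Gcg also met the rule, on the UMIs of the single cell described above and 2 chow UMIs, against none in CD8 T cells. In the regulatory T cell list 7 of 9 measured genes were higher and 0 lower in both libraries, among them Ctla4 and Tnfrsf18 (GITR), at 344 against 142 CPM in chow and 425 against 229.9 CPM in the ketogenic library. In the co-stimulation list 6 of 13 measured genes were higher and 1 lower in both libraries, with Icos at 2.24 and 1.23 and Cd160, the lower gene, at −3.23 and −1.67. In the effector memory list 3 of 14 measured genes were higher and 0 lower in both libraries, the 3 being S100a4, S100a11 and Itgb1, the last at 608 against 184 CPM in the chow library and 603 against 269.8 CPM in the ketogenic library. In the Th1 list 0 of 12 measured genes were higher and 3 lower in both libraries, while Tbx21, Ifng and Cxcr3 were not among them.

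The regulatory T cells of cluster 7 (148 cells with a Foxp3 UMI, 48 chow and 100 ketogenic) were compared with conventional CD4 T cells in the same way. Of 1757 genes of at least 100 UMIs, 98 (5.58%) were higher and 160 (9.11%), Foxp3 among them, lower in members in both libraries. The list counts also take in genes of fewer UMIs. Both sets were separated by the authors' clustering on the same transcripts, so this is a description. In the regulatory T cell list, leaving aside Foxp3, by which those cells were chosen, 0 of 9 measured genes were higher and 9 lower in both libraries, with Il2ra at 7.32 against 523 CPM in the chow library and 23.8 against 444 CPM in the ketogenic library and Klrg1 at 14.6 against 922 CPM in the chow library and 54.1 against 804 CPM in the ketogenic library. Il1rl1 stood at 14.6 against 886 CPM in the chow library and 26.4 against 493 CPM in the ketogenic library and Areg at 58.6 against 3341 CPM in the chow library and 145 against 2073 CPM in the ketogenic library, genes for which adipose regulatory T cells are known. In the Th2 list 0 of 7 measured genes were higher and 7 lower in both libraries. AA467197 and Ltb4r1, a leukotriene receptor, had log2 ratios of −5.84 and −4.48 and of −5.59 and −4.35, and Sdc4 and Il10 were at 0 in chow members, at least 12.5-fold and 7.26-fold lower there than in chow cells of cluster 7.

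The genes most raised in members over regulatory T cells were Dapl1, Fasl, Slamf6, Gm8369, Ms4a4b, Gtf2i, Gramd3 and S1pr1. Dapl1 had no UMI in cluster 7 cells with Foxp3, and was at least 6.06-fold higher in chow and 17.1-fold higher in ketogenic members. S1pr1 stood at 278 against 17.7 CPM in the chow library and 159.8 against 22.2 CPM in the ketogenic library, Slamf6, a receptor of less differentiated T cells, at 168 against 0 CPM in the chow library and 190.1 against 17.3 CPM in the ketogenic library, and Fasl, the death ligand, at 139 against 8.86 CPM in the chow library and 129 against 4.93 CPM in the ketogenic library. Ms4a4b stood at 1772 against 151 CPM in the chow library and 1729.8 against 222 CPM in the ketogenic library. In the naive and central memory list 8 of 13 measured genes were higher and 0 lower in both libraries, with Tcf7, a regulator of stem-like T cells, at 2.70 and 3.71. In the Th1 list 7 of 12 measured genes were higher and 2 lower in both libraries, with Ifng at 2.66 and 3.12, Cxcr3 at 2.28 and 3.12 and Ccl5 at 1.75 and 1.44. In the effector memory list 1 of 14 measured genes was higher and 9 lower in both libraries, Itgb1 being the higher one at 2.35 and 2.71. In the NF-kB list 0 of 12 measured genes were higher and 8 lower in both libraries, with Nfkbia at 527 against 3173 CPM in the chow library and 725 against 3319 CPM in the ketogenic library, and in the immediate early list 0 of 17 measured genes were higher and 13 lower in both libraries.

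A second group of cluster 7, 70 cells with a Cd4 UMI and no Foxp3 UMI (23 chow and 47 ketogenic), gave a further comparison. Of 1451 genes of at least 100 UMIs, 58 (4%) were higher and 105 (7.24%) lower in members in both libraries. Again the list counts take in genes of fewer UMIs. Csf2 (GM-CSF) stood at 0 against 162 CPM in the chow library and 5.28 against 443 CPM in the ketogenic library, Furin, a protease that processes cytokines, at 65.9 against 799 CPM in the chow library and 38.3 against 418 CPM in the ketogenic library, and Areg at 58.6 against 1448 CPM in the chow library and 145 against 1305 CPM in the ketogenic library. Cd40lg was also lower in members, at 183 against 501 CPM in the chow library and 173 against 282 CPM in the ketogenic library. Il1rl1, Klrg1, Ltb4r1, Atf3 and Nfkbiz were the other named lower genes. In the Th2 list 0 of 7 measured genes were higher and 7 lower in both libraries, with Il5 at −4.51 and −4.87 and Gata3 at −2.08 and −1.73. Higher in members were Dapl1, with no UMI in this group, Gm8369, Ctsw, Ms4a6b, Txk, a kinase of Th1 cells, Izumo1r, Ms4a4b and Cxcr3, at 190.4 against 54.1 CPM in the chow library and 289 against 55.4 CPM in the ketogenic library. In chow, Ctsw rested on 11 against 1 UMIs (ratio interval [0.865–256]) and Izumo1r on 9 against 1 [0.675–213]. Both intervals include equal levels. In the naive and central memory list 8 of 13 measured genes were higher and 0 lower in both libraries, with Ccr7 at 1.44 and 1.40 and S1pr1 at 1.47 and 1.74, and in the Th1 list 7 of 12 measured genes were higher and 1 lower in both libraries. Cells of this group can include regulatory T cells whose Foxp3 was not captured, and how many was not tested.

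**Figure D4:**
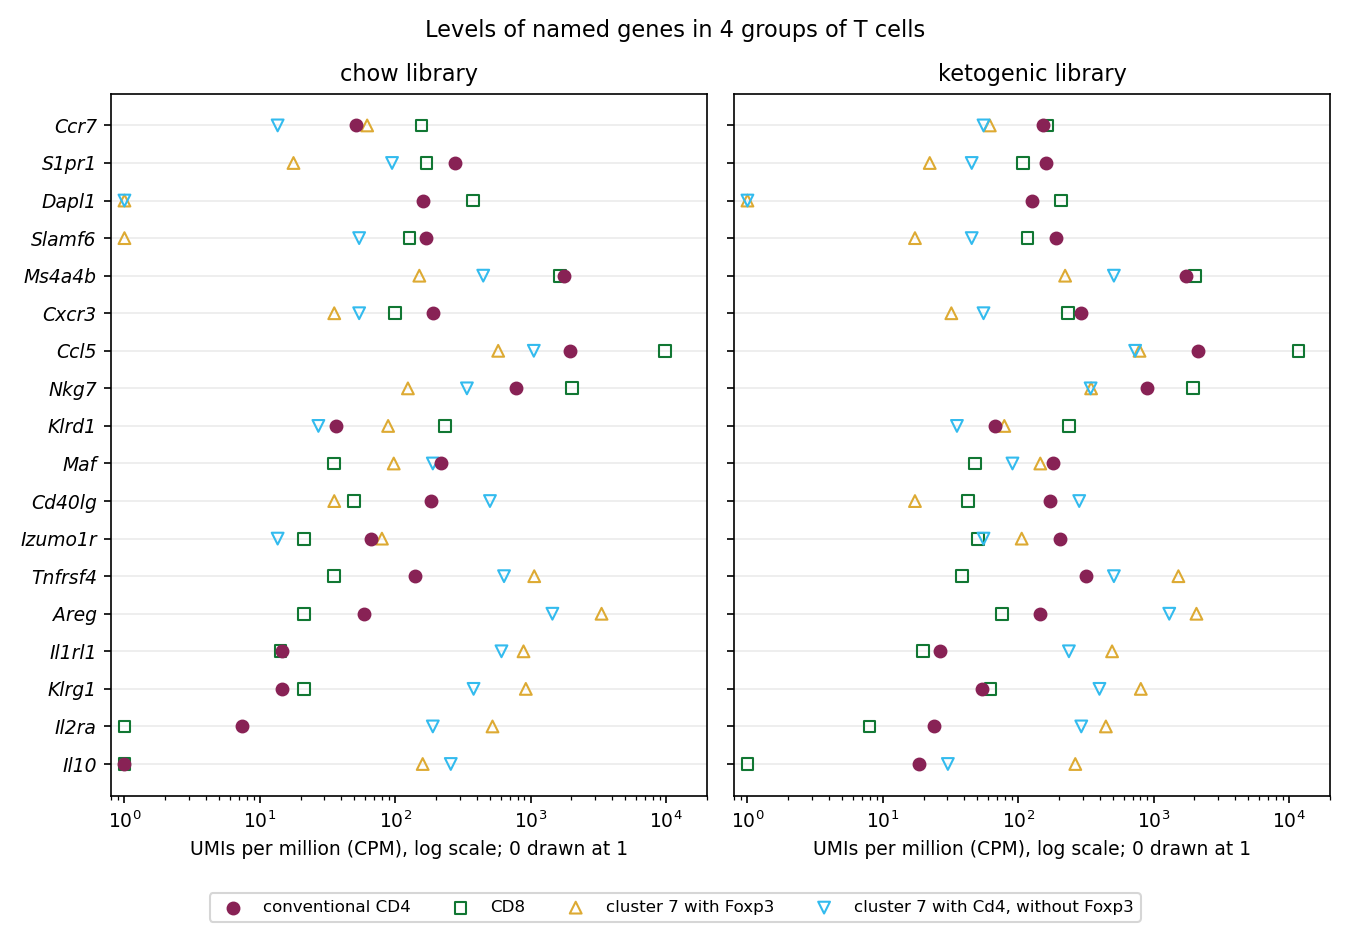
CPM on a log scale (0 drawn at 1) of 18 genes in conventional CD4 T cells (filled circles), CD8 T cells of the same cluster (squares), cluster 7 cells with Foxp3 (upward triangles) and cluster 7 cells with Cd4 and without Foxp3 (downward triangles), chow library on the left and ketogenic on the right. Conventional CD4 T cells lie above both groups of cluster 7 for Ms4a4b, S1pr1 and Slamf6, below the CD8 T cells for Ccl5, Nkg7 and Klrd1, and below both groups of cluster 7 for Areg, Il1rl1 and Klrg1.

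Most conventional CD4 T cells carried a memory-side transcript. A UMI of S100a4, Cxcr6 or Itgb1 was seen in 47 of 56 chow members (83.9% [71.7–92.4]) and 194 of 212 ketogenic members (91.5% [86.9–94.9]). After thinning to 1000 UMIs these shares were 67.9% (38 of 56) and 68.9% (146 of 212), so no difference between the diets was detectable at this depth. In CD8 T cells of the same cluster the thinned shares were 39.1% and 54.4%, and the unthinned ones 63.0% and 77.2%. These genes are not confined to T cells. In the deeper cells of cDC1-like cluster 6 the unthinned shares were 80.5% and 78.9%, close to those of the members, and the thinned ones 23.8% and 21.4%. In B and plasma-like cluster 9 the unthinned shares were 63.4% and 47.8% and the thinned ones 19.5% and 16.7%.

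The T cell receptor repertoire could not be described at this depth. A UMI of a variable segment of the beta chain (Trbv) was found in 0 of 56 chow and 6 of 212 ketogenic members, and one of the alpha chain (Trav) in 7 and 15. Trbv12-2 accounted for 2 of the 6 ketogenic members and Trav13-1 for 2 of the 15.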

How the data were processed

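The deposited files hold, for 1 library per diet, a matrix of UMI counts for 28692 gene identifiers in 10159 cells, and a table of the authors' clusters at a resolution of 0.5 (13 clusters). That table also gives t-SNE scores of each cell as the authors computed them, which were not used. Per the submitters' processing notes, Cell Ranger, Seurat and mm10 were used. Versions are not given in the sources used here. The UMI counts were deposited by the authors without normalization, and were used as deposited.

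UMIs were summed over the conventional CD4 T cells of each library and divided by their total (CPM). Log2 ratios had 0.5 added to each count. Genes of at least 20 UMIs over both libraries count as measured, those of at least 100 were ranked, and a gene is called past 1.5-fold. Intervals at 95% are exact (binomial for shares, Poisson for CPM, conditional binomial for ratios). A count of 0 was bounded with 3 counts per library. To compare shares across depths, each cell was thinned to 1000 UMIs as an exact expectation; no clustered cell had fewer than 1699. No replicate exists, so no test was made between diets. The code was tested on simulated data. Possible doublets were treated as an alternative only.

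Named genes are the 10 highest and 10 lowest diet ratios, leaving out mitochondrial, immunoglobulin and T cell receptor genes and Cd4, Cd8a and Cd8b1. For the other comparisons they are the 8 highest and 8 lowest by the smaller of the log2 ratios of the 2 libraries. From each of 31 lists (344 genes, 340 of them in the table) they are up to 4 most abundant genes, genes past 1.5-fold whose interval excludes 1, and defining genes. Some genes of the lists, and results that need them, among them the planned split of members by naive and memory genes, are not reported here; counts over lists include these genes. Other genes were named after their values were seen. The members and the lists were chosen with earlier results of these data known. Positions are from GENCODE annotation of GRCm38 (mm10). Python 3.11.15, numpy 2.4.6, scipy 1.17.1, pandas 2.3.3 and matplotlib 3.10.9 were used.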

Additional observations from a re-analysis of the deposited data

Results flagged for a closer look

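Cells that the deposited table gave no cluster were not part of the comparisons. Among the 55 ketogenic cells of this kind, 7 had UMIs of Cd4 and of a Cd3 gene and none of Cd8a or Cd8b1, and among the 87 chow cells 2 did. These are T cell transcripts in data outside the clustered cells. They could not meet the rule for conventional CD4 T cells, and they are few beside the 56 chow and 212 ketogenic members.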

How the results depend on the processing

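The share ratio of 3.04 was 1.09 over cluster 2, 1.31 over clusters 2, 7 and 11, and 4.61 with at least 2 Cd4 UMIs. The counts of 972 higher and 665 lower genes became 437 and 980 with 2 added to each count, which turned the share of higher among called genes from 59.4% to 30.8% and the median of all genes to −0.15. They were 1530 and 1289 at a minimum of 10 UMIs, 356 and 186 at 50, 127 and 68 at 100, 460 and 214 past 2-fold, and 436 and 464 (48.4% higher) with at least 2 Cd4 UMIs. Against CD8 T cells the counts of 81 and 22 became 183 and 62 at a minimum of 50 UMIs. More genes enter at the lower minimums (10 UMIs, and 50 against CD8 T cells) and fewer at the higher ones, and fewer cells enter under the Cd4 requirement. The cause was not tested otherwise.

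Sign turns of diet ratios are named only for genes past 1.5-fold in the reported setting. Other genes are counted only by whether they left their interval, whatever their sign. Signs turned for Gcg, at −3.21 without its top cell, −3.21 without possible doublets and −3.18 without members with Trdc. With at least 2 Cd4 UMIs, which leaves 12 chow cells, they turned for Ccl1 (−1.58), Igfbp4 (0.11), Ifng (−0.058), Areg (−0.36), Pdcd1 (−0.20), Btg2 (−0.22), Mcm6 (−0.76), Gpi1 (−0.0098), Acads (−0.66), Slc1a5 (−0.28), Ddit4 (−0.66) and Klrd1 (−0.53). Over all cells of cluster 2 without Cd8 UMIs they turned for Cd69 (−0.020), Areg (−0.35), Jun (0.052), Birc3 (−0.13), Etfdh (−0.085) and Acaa2 (0.30). Klrd1 was also at −0.26 without possible doublets, and Trdc at −2.45 without members with Trdc, by construction. The cause was not tested. Of the other values for single genes, 123 moved by more than their interval and 2668 did not. Many intervals are wide because chow counts are low, so staying within them shows little about stability. The shares of members with a UMI of S100a4, Cxcr6 or Itgb1, 83.9% and 91.5%, were 67.9% and 68.9% after thinning, which leaves fewer UMIs per cell.

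No paired analysis was possible because each diet has 1 library, and for the same reason no library could be left out. The planned doublet filter left 1 chow and 4 ketogenic members, so ratios per gene were not run with it (share ratio 3.21 [0.317–158]). For ratios per gene, the settings without the shallowest chow members, without free RNA genes in the doublet filter, without the top cell and without members with Trdc were chosen after seeing the data. The 136586 chow UMIs limit most ratios, since a gene of 20 UMIs has only a few in chow.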

Other observations

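Tnfrsf9 (4-1BB), a receptor that T cells gain on activation, was detected in 21 of 212 ketogenic members and in 1 of 56 chow members. This split was chosen after the values were seen and is a description. The 21 cells had a median of 3908 UMIs, against 3026 in the other 191 ketogenic members. Xcl1 stood at 970.2 CPM in the Tnfrsf9-positive cells and 63.4 CPM in the others, a ratio of 15.3 [10.5–22.6]. Tnfrsf4 stood at 865 and 237 CPM (3.65 [2.76–4.80]) and Izumo1r at 464 and 166 CPM (2.79 [1.92–3.998]). Without the cell with most UMIs of the gene these 3 ratios were 11.6, 3.08 and 2.52. Ifng stood at 327 and 112 CPM, but 18 of its 31 UMIs were in 1 cell, without which the ratio was 1.27 [0.648–2.31]. Lag3 stood at 158 and 33.2 CPM, with 8 of its 15 UMIs in 1 cell, and at 2.32 [0.838–5.63] without it. Il2 stood at 189.8 and 78.5 CPM, with 15 of its 18 UMIs in 1 cell, and its ratio was 0.431 [0.0862–1.33] without it. Foxp3, of regulatory T cells, was higher too, at 63.3 and 18.1 CPM (3.49 [1.08–10.1]) in 3 of 21 and 10 of 191 cells, and at 1.95 [0.353–7.23] without 1 cell. Il10 stood at 42.2 and 15.1 CPM, from 4 and 10 UMIs. The part of regulatory T cells in these values was not tested. The helper gene Cd40lg was at 179 and 172 CPM, a ratio of 1.04, and Trac at 1181 and 959 CPM, a ratio of 1.23 [0.999–1.51].

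Depth differed between these cells, so shares were also taken after thinning to 1000 UMIs. A Tnfrsf4 UMI was then found in 42.8% of the Tnfrsf9-positive and 17.1% of the other ketogenic members, an Izumo1r UMI in 38.3% and 12.4%, and an Il2 UMI in 7.544% and 7.605%. Ccl1 stood at 1055 and 58.9 CPM, but 77 of its 100 UMIs in the Tnfrsf9-positive cells were in 1 cell, without which the ratio was 4.29 [2.45–7.36]. Areg stood at 464 and 99.6 CPM, with 25 of its 44 UMIs in 1 cell, without which the ratio was 2.13 [1.21–3.59].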
